A study of Homo sapiens with 41 samples.

Results

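The HDAC6 locus was followed through every assay of a chromatin study of MDA-MB231, a human triple-negative breast cancer epithelial cell line. HDAC6 is 1 gene of the 19970 protein-coding genes examined, and was chosen by name; its window is the gene at chrX:48801398-48824982 (GRCh38, 23585 bp, plus strand) with 5 kb on each side, 33585 bp in all. Of 41 samples, 32 had a list of called peaks and 9 were not analysed here. Cells treated with the HDAC6 inhibitor Nexturastat A (NextA, 5 µM for 2 days) were set against cells labelled Ctrl, and cells with an HDAC6 hairpin (shHDAC6) against cells with a control hairpin (shCtrl); the hairpin sequences, and whether the hairpin cells are 1 clone, are not given in the sources used here. HDAC6 ChIP had 2 NextA, 2 shHDAC6 and 2 Ctrl lists and no shCtrl list, and HDAC6 CUT&Tag, which tethers a transposase to the antibody, had 2 Ctrl lists. ChIP for acetylated histone H3 (labelled Pan-acetyl) had 2 NextA and 2 Ctrl lists. ChIP with an antibody to the Rpb1 CTD, the tail of the largest RNA polymerase II subunit (PolII), had 2 lists in each of NextA, shHDAC6, shCtrl and Ctrl. ATAC-seq, in which a transposase cuts open chromatin, had 3 lists in each of the same groups. Each library was made from 100000 cells.

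HDAC6 protein is a class IIb deacetylase found mostly in the cytoplasm, where it removes acetyl groups from tubulin, cortactin and HSP90. Its zinc finger binds ubiquitin and takes part in carrying misfolded protein to the aggresome. At an active gene, open chromatin and paused or initiating polymerase usually gather around the transcription start, which is what ATAC and PolII peaks show. None of these assays measures HDAC6 mRNA or protein, so the peaks do not check the knockdown.

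RefSeq gives HDAC6 3 transcription starts, at positions 48801398, 48801949 and 48802067. The second lies 551 bp and the third 669 bp downstream of the first, and the second and the third are 118 bp apart. The gene start was taken as these starts with 1 kb on each side. The promoter stretches around the first and the third starts are printed because peaks covered them differently. Each is the plus strand 5′ to 3′ from RefSeq (GRCh38.p14), running from 250 bases before the start to 50 after it. Capitals mark matches on either strand to the GC box, spelled GGGCGG, to the box named by its letters CCAAT, and to the short form of the CRE element, spelled TGACG.
HDAC6 start 1, chrX:48801148-48801447: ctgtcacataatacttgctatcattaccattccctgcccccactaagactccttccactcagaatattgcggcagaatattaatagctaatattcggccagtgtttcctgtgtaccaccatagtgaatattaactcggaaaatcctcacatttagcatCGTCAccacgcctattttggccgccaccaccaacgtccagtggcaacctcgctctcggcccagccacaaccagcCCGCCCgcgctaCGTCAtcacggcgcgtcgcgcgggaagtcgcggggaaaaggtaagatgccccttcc
HDAC6 start 3, chrX:48801817-48802116: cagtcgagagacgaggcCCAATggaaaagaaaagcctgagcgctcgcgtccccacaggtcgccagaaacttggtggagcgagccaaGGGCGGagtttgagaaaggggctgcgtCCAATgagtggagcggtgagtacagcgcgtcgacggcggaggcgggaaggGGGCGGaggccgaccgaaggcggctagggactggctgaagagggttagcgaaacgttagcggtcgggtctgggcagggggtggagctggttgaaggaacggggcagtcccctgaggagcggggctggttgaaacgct
The stretch at the first start had 21 CpG and a GC content of 53.0%. The stretch at the third start had 27 CpG and 64.3% GC, and that at the second start (chrX:48801699-48801998, sharing 182 bases with the third) had 36 CpG and 68.7% GC. The medians over 22011 promoters of the same length were 21 CpG and 62.3% GC. The first stretch held 1 GC box and 2 short CRE elements, which began 92 and 6 bases before the start. The second held 4 GC boxes and 2 CCAAT boxes, and the third held 2 of each, all inside the part it shares with the second. Of all promoters, 56.3% held a GC box, 34.7% a CCAAT box and 27.8% a short CRE element. None of the 3 stretches held any of the other motifs searched. Of all promoters, 9.49% held the TATA box letters TATAAA and 12.7% the ETS core letters CCGGAAG. The E box letters CACGTG were in 8.32%, and the AP-1 site, spelled TGACTCA, was in 4.02%. The NRF1 core, spelled GCGCATG, was in 5.23% and the YY1 site, spelled AAGATGGC, in 3.54%. The heat shock element, spelled GAANNTTC, was in 5.69%. A match or its absence describes the letters of the stretch and says nothing of the factor.

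The lists differed in ways that bear on the locus. Some were called on q and number their peaks without a break, and the others were called on p and skip numbers, so peaks had been dropped from them after calling. Replicate 1 was called on q and replicate 2 on p in the NextA and Ctrl groups of all 3 ChIP targets, and ATAC replicate 1 of these groups was called on q. All hairpin lists were called on p and both CUT&Tag lists on q. HDAC6 ChIP used the CST antibody in replicate 1 and the Novus antibody in replicate 2 of NextA and Ctrl, and Novus in all shHDAC6 and CUT&Tag lists. Peak names of the NextA Novus list carry a prefix otherwise found in shCtrl lists, and those of CUT&Tag replicate 2 carry a hairpin prefix, against their labels; both were kept in their labelled groups. No label ties a replicate to a culture of its own, so p-values here cover the spread between these libraries alone, and that spread may be technical. Of the line's 4 basal and mesenchymal markers, VIM had an ATAC gene start peak in 12 of 12 lists and a PolII peak in 8 of 8, and ZEB1 and AXL had 9 and 10 ATAC and 8 PolII peaks each. The adhesion receptor gene CD44 had 6 ATAC peaks, all in NextA and Ctrl lists, and 6 PolII peaks, none in shCtrl lists. CDH1, the epithelial cadherin, had no ATAC peak and 2 PolII peaks, while the keratins KRT18 and KRT8 had 9 and 6 ATAC and 8 and 0 PolII peaks. The luminal genes ERBB2 and GATA3 had 12 and 10 ATAC and 8 and 7 PolII peaks. Among leukocyte genes PTPRC had no ATAC or PolII peak, CD3E had 5 and 0, and CD68 had 12 and 8.

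HDAC6 was marked within 1 kb of its starts by open chromatin and PolII in every list of those assays, and by HDAC6 CUT&Tag. HDAC6 ChIP marked it there in no list. In all, 27 peaks in 25 of 32 lists fell in the window. Of these, 23, in 23 lists, lay at the gene start and 4, in 3 lists, elsewhere in the gene body. No peak lay wholly in either flank, and 7 lists had no peak in the window. Among all protein-coding genes, 43.0% had an ATAC peak at the start in all 12 lists, 53.6% a PolII peak in all 8, and 40.4% both.

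**Figure D1:**
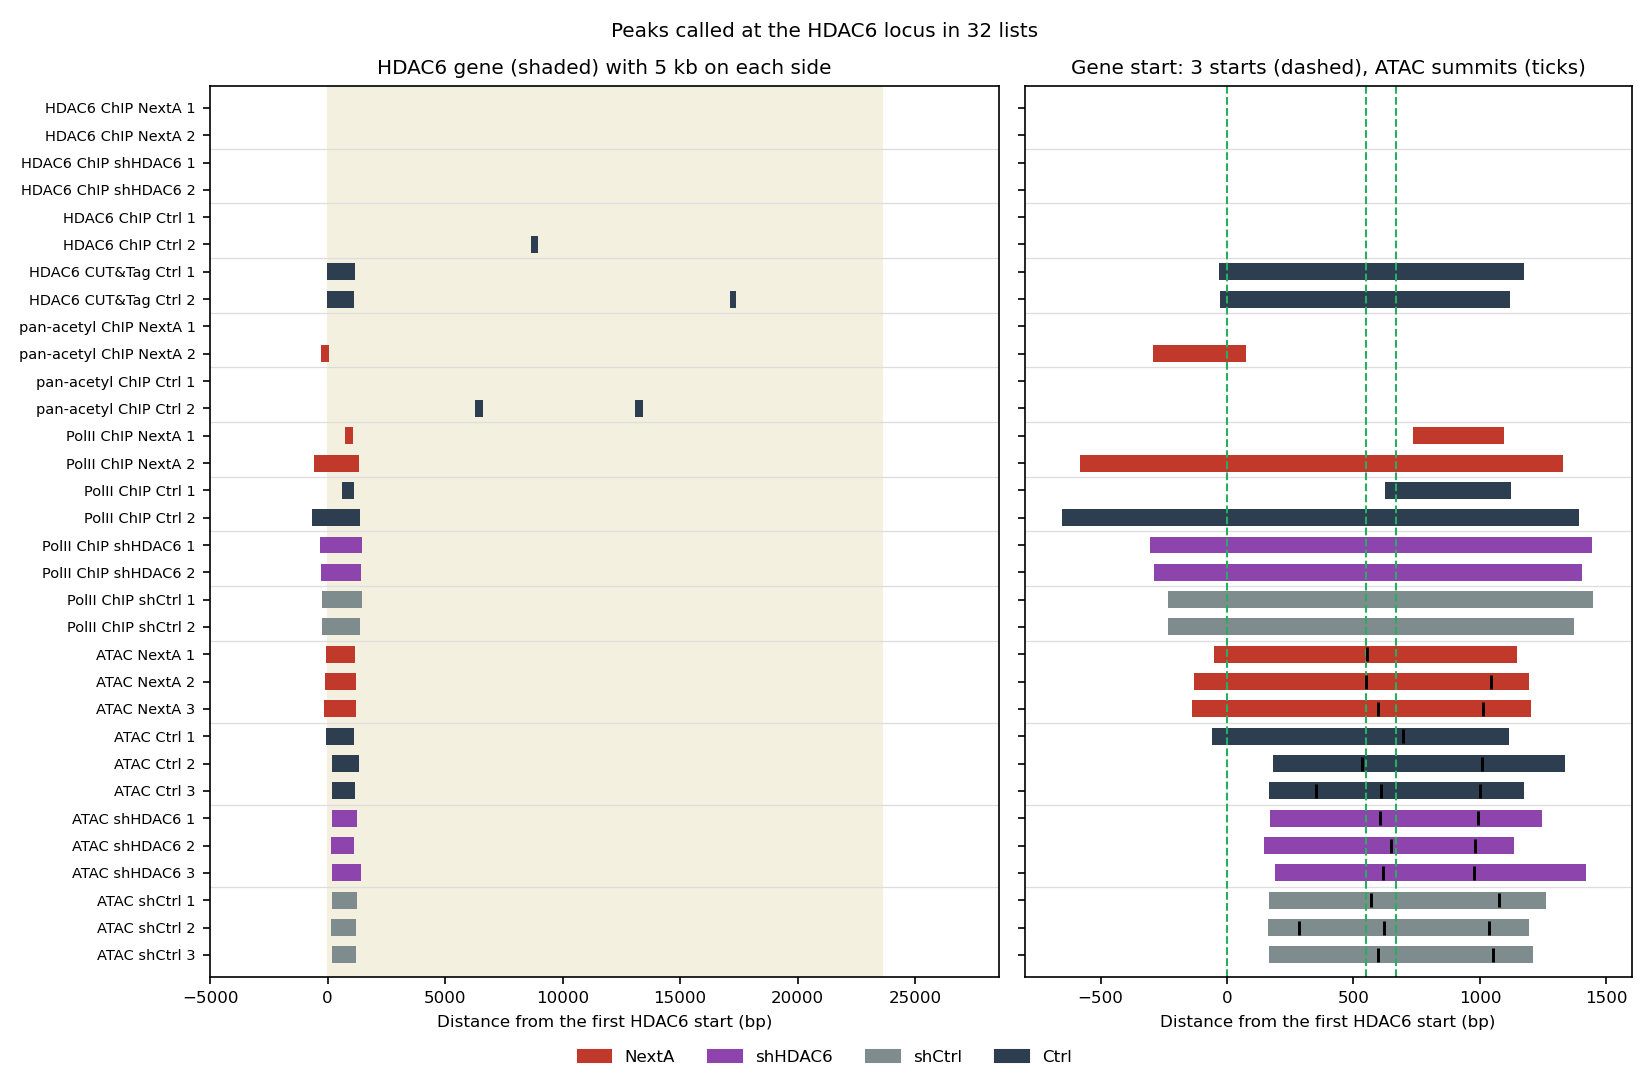
Called peaks in the HDAC6 window (left) and around its start (right) for each of the 32 lists, against distance in bp from the first start. Bars are peaks coloured by group, dashed lines the 3 starts and ticks the ATAC summits; the 23 start peaks line up within 653 bp before and 1448 bp after the first start, and the HDAC6 ChIP lists have none there.

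Open chromatin at HDAC6 formed a single peak that every library shared. The 12 ATAC peaks were 990 to 1337 bp wide (median 1124.5) and had 928 bases in common, chrX:48801586-48802513, which contain the second and the third starts but not the first. The authors' fold over the caller's background was 9.60, 9.09 and 9.58 in NextA lists, against 10.0, 9.70 and 9.26 in Ctrl lists. It was 11.5, 8.50 and 8.24 in shHDAC6 lists, against 9.68, 12.3 and 10.7 in shCtrl lists. Folds and ranks are the authors' values or come from them and describe a peak within its own list. The percentile of a peak is the share of its list's peaks with a lower fold. It was 76.4, 85.6 and 88.7 in NextA lists, against 74.7, 90.6 and 88.5 in Ctrl lists. It was 97.9, 88.0 and 86.1 in shHDAC6 lists, against 95.1, 99.3 and 97.7 in shCtrl lists. Lists of different length cannot be compared by rank, so the lists of a comparison were also reduced to the same number of strongest peaks. With 42113 peaks each, the percentile was 55.3, 78.6 and 84.0 in NextA lists, against 55.5, 90.6 and 87.8 in Ctrl lists. The groups overlapped, and NextA was lower in 3 of 3 same-numbered pairs. The difference of the means was −5.37 points, against a median of −0.67 over 6915 genes, and 69.9% of those genes had a higher value. With 25878 peaks each, the percentile was 97.4, 88.0 and 84.6 in shHDAC6 lists, against 93.8, 99.1 and 97.5 in shCtrl lists, which overlapped. There the difference was −6.79 points, against a median of 1.34 over 8237 genes, and 83.4% of those genes had a higher value. In shCtrl replicate 2 the HDAC6 peak was number 246 of 32998. The lowest percentiles, 76.4 and 74.7, belong to the NextA and Ctrl lists called on q, which are also the longest ATAC lists.

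The strongest ATAC summit lay around the second and the third starts. In the 12 lists it was 533 to 695 bp downstream of the first start, which is from 18 bp before to 144 bp after the second and from 136 bp before to 26 bp after the third. It was nearest to the second start in 8 lists and to the third in 4. All 12 fell inside the printed stretch of the third start, 6 inside that of the second and 0 inside that of the first; each stretch ends 50 bases after its start. A weaker summit, with a fold of 3.96 to 8.68, followed 306 to 407 bp past the third start in 10 lists; the other 2 lists, called on q, give 1 summit for the HDAC6 peak. A weaker upstream summit, 286 to 350 bp past the first start, was called in Ctrl replicate 3 with a fold of 7.67 and in shCtrl replicate 2 with a fold of 4.85. The first stretch was covered for 103, 181 and 187 of its 300 bases in NextA lists, against 111, 0 and 0 in Ctrl lists. It had no ATAC cover in any shHDAC6 or shCtrl list. The stretches of the second and the third starts were covered whole in 12 of 12 ATAC lists.

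In 2 of 3 NextA lists the ATAC peak began further upstream than in any Ctrl list, with too few lists for the test to call a difference. The peak began 53, 131 and 137 bp before the first start in NextA lists. In Ctrl lists it began 61 bp before it and 182 and 165 bp after it. NextA lists thus covered the first start in 3 of 3 lists, against 1 of 3 Ctrl lists, 0 of 3 shHDAC6 lists and 0 of 3 shCtrl lists. Covered bases of the window were 1199, 1326 and 1337 in NextA lists, against 1177, 1156 and 1011 in Ctrl lists, and the groups did not overlap. The means were 1287 ± 76.7 and 1115 ± 90.4 bases (SD, n = 3 each), a difference of 172.667 bases. The exact two-sided permutation test over lists gave p = 0.1, the smallest that 3 against 3 lists allow, and 0.6 after Benjamini-Hochberg adjustment over the 6 comparisons. Covered bases did not overlap and were higher with NextA at 3.33% of 18163 gene windows with a peak, and lower at 2.59%. Between the lists called on q the difference was 22 bases, and among those called on p it was 248. NextA lists 2 and 3 kept 21.2% and 21.3% of their peak numbering, against 3.92% and 3.90% in Ctrl lists 2 and 3; its part in the result was not tested. Divided by each list's own covered length, the direction turned: 33.2 bases per Mb with NextA and 33.6 in Ctrl. It also turned with 20 kb flanks, to 1651 bases with NextA and 1740 in Ctrl, and the source of the added peaks was not tested.

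After knockdown the ATAC cover of the locus overlapped between groups. It was 1076, 990 and 1233 bases in shHDAC6 lists, against 1093, 1031 and 1043 in shCtrl lists. The means were 1099.67 ± 123 and 1055.67 ± 32.9 bases (SD, n = 3 each), with an exact permutation p of 0.8, adjusted 1.0. The NextA difference exceeded the knockdown difference by 128.667 bases. Exact permutation over the 400 arrangements of lists within both comparisons gave p = 0.31. It takes no difference in either comparison as its null, so it does not test whether the differences are equal. The start peak was present in every list of both comparisons, as at 49.2% of all genes with NextA and Ctrl and 47.7% with the hairpins. A start peak was lost at 0.086% and gained at 0.162% of genes with NextA, and lost at 0.342% and gained at 0.52% after knockdown.

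**Figure D2:**
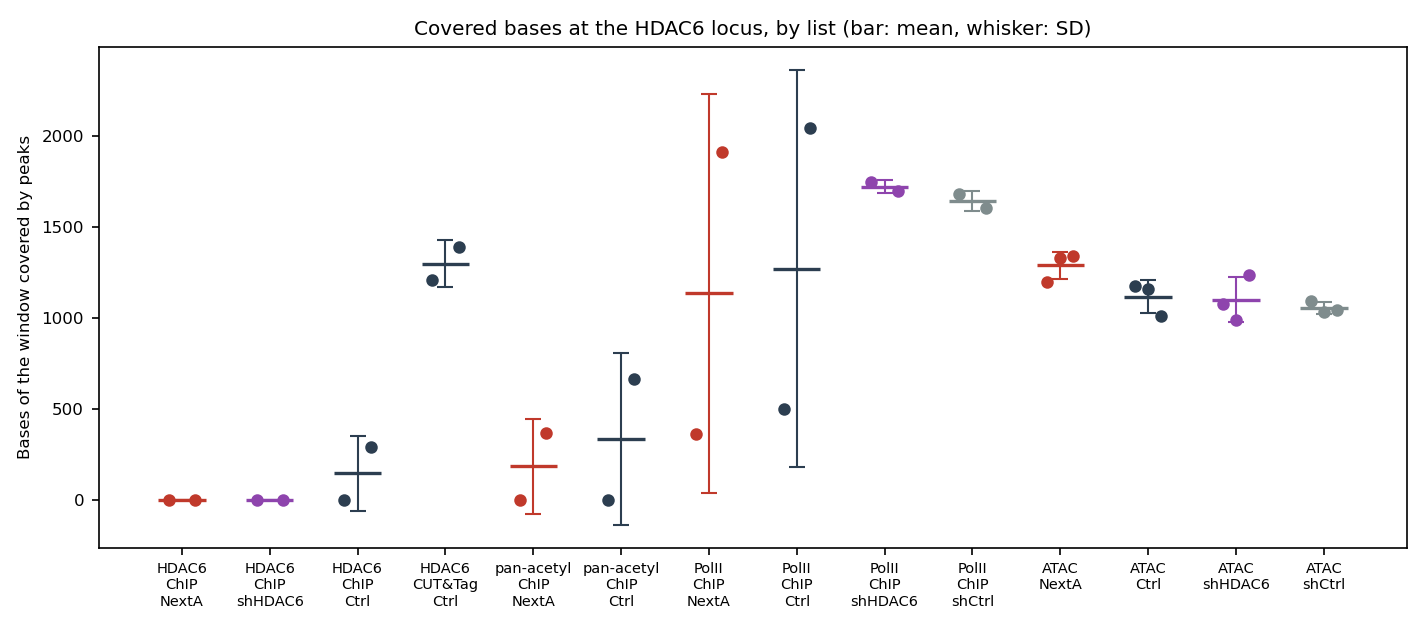
Bases of the HDAC6 window covered by peaks in each list (points), with the group mean (bar) and SD (whisker), by assay and group. ATAC NextA lists lie above the Ctrl lists (1199 to 1337 against 1011 to 1177), and the PolII values of NextA and Ctrl split by replicate.

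PolII had a peak within 1 kb of the HDAC6 starts in all 8 lists. That peak ranked higher in both shHDAC6 than in both shCtrl lists, a description with no test. The authors' fold was 6.21 and 5.82 in shHDAC6 lists, against 3.72 and 3.10 in shCtrl lists. The deposited −log10 q was 10.8 and 9.05 in shHDAC6 lists, against 3.87 and 2.21 in shCtrl lists. The within-list percentile was 72.5 and 65.2 in shHDAC6 lists, against 49.5 and 34.7 in shCtrl lists, and the groups did not overlap. With each list reduced to its 19519 strongest peaks, the percentiles were 72.5 and 65.1 in shHDAC6 lists, against 44.2 and 28.6 in shCtrl lists. The difference of the means was 32.4 points, against a median of 1.33 over the 11978 genes with a start peak in every one of these reduced lists, and 2.99% of those genes had a larger one. Groups that do not overlap in this measure were common: 43.7% of these genes were higher and 36.0% lower in shHDAC6, so the non-overlap itself sets HDAC6 apart from few genes. Ranked by −log10 p, the percentiles were 49.0 and 45.1 in shHDAC6 lists, against 43.0 and 34.5 in shCtrl lists.

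**Figure D3:**
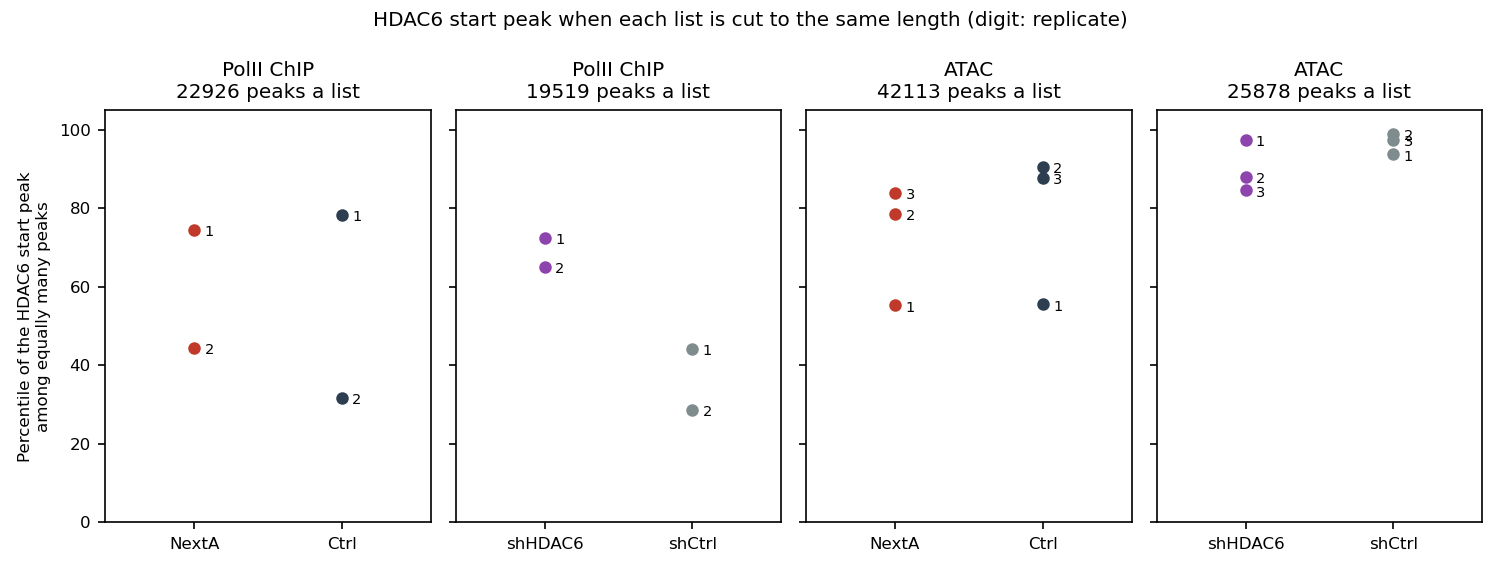
Percentile of the HDAC6 start peak when the lists of a comparison are reduced to the same number of strongest peaks, with the replicate number beside each point. For PolII after knockdown the shHDAC6 lists (72.5 and 65.1) lie above the shCtrl lists (44.2 and 28.6); the other panels overlap.

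The width of the PolII peak differed less. Covered bases were 1747 and 1695 in shHDAC6 lists, against 1682 and 1605 in shCtrl lists. The means were 1721 ± 36.8 and 1643.5 ± 54.4 bases (SD, n = 2 each), and the exact permutation p was 0.333, the smallest that 2 against 2 lists allow, and 1.0 adjusted. Covered bases did not overlap and were higher in shHDAC6 at 27.2% of 14705 gene windows and lower at 35.4%. The peaks began 304 and 290 bp before the first start in shHDAC6 lists, against 233 bp before it in both shCtrl lists. Within the gene body alone the difference was 13.5 bases. The start peak was present in 2 of 2 shHDAC6 and 2 of 2 shCtrl lists, as at 62.3% of genes; after knockdown a PolII start peak was gained at 2.24% and lost at 0.925% of genes. With only peaks of −log10 q of at least 5 kept, HDAC6 had one in 2 of 2 shHDAC6 lists and 0 of 2 shCtrl lists, a call of gained that 6.18% of 9185 genes without such a peak in either shCtrl list shared. At that floor 0.715% of genes with such a peak in both shCtrl lists lost it. There 12451 and 12524 peaks remained in shHDAC6 lists, against 11500 and 11602 in shCtrl lists. The numbering kept was 72.7% and 75.1% in shHDAC6 lists, against 56.6% and 50.6% in shCtrl lists; its part in the result was not tested. Of 22 cell type markers, CD44 gained a PolII start peak after knockdown, low in the shHDAC6 lists at a mean percentile of 5.04. The neuronal gene SNAP25 lost one, which had a mean percentile of 39.1 in shCtrl lists.

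With NextA, PolII at HDAC6 overlapped between groups and followed the replicate. Covered bases were 360 and 1910 in NextA lists, against 498 and 2043 in Ctrl lists. The means were 1135 ± 1096 and 1270.5 ± 1092 bases (SD, n = 2 each; exact permutation p = 0.667, adjusted 1.0). Between the lists called on q the difference was −138 bases and between those called on p −133. At an equal length of 22926 peaks the percentile was 74.4 and 44.5 in NextA lists, against 78.4 and 31.7 in Ctrl lists, lower with NextA in replicate 1 and higher in replicate 2. In the whole lists it was 81.2 and 49.9 with NextA, against 78.4 and 43.6 in Ctrl. The fold was 4.93 and 5.29 in NextA lists, against 5.47 and 4.55 in Ctrl lists. The replicate 1 peaks were narrow and lay downstream of the first start, beginning 735 bp after it in NextA and 625 bp after it in Ctrl. The NextA one covered none of the 3 starts, and the Ctrl one covered the third alone. The replicate 2 peaks began 580 bp before the first start in NextA and 653 bp before it in Ctrl. A PolII start peak was lost with NextA at 0.0714% and gained at 0.954% of genes, and HDAC6 was neither, its start peak being present in every list as at 55.1% of genes. The NextA difference in covered bases minus the knockdown difference was −213. Exact permutation within both comparisons, with the same null as for ATAC, gave p = 0.389, where the smallest possible was 0.0556.

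HDAC6 ChIP placed no peak at the start of its own gene, while CUT&Tag did. No NextA, shHDAC6 or Ctrl list had a start peak, in a total of 6 lists. Of all genes, 63.5% had one in at least 1 of these 6 lists, so genes with none were common. The Ctrl lists had start peaks at 54.7% of genes in replicate 1 (CST) and 23.6% in replicate 2 (Novus). The shares were 4.38% and 0.195% in NextA lists and 2.88% and 1.91% in shHDAC6 lists. Start peaks in both Ctrl lists were found at 16.5% of genes, and 91.1% of those genes had none in either NextA list. NextA lists held 3256 and 235 peaks and shHDAC6 lists 16441 and 12152, against 28590 and 63833 in Ctrl lists. Of its peak numbering the NextA Novus list kept 0.103%, against 23.2% in the Ctrl Novus list and 5.07% and 20.1% in shHDAC6 lists. Both CST lists kept 100% of theirs. The part of this dropping in the result was not tested. The only HDAC6 ChIP peak in the window was in the Ctrl Novus list, at chrX:48810052-48810343 in the gene body, 8654 bp past the first start. It was 292 bp wide with a fold of 2.62 and a −log10 q of 0.120, at percentile 90.3. Covered bases were thus 0 and 0 in NextA lists and 0 and 0 in shHDAC6 lists, against 0 and 292 in Ctrl lists (NextA against Ctrl, exact permutation p = 1.0). Without the NextA list whose prefix goes against its label the difference was the same, −146 bases. The shHDAC6 lists can be set against 1 Ctrl list of the same antibody, and no test is possible there.

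In CUT&Tag the start peak covered all 3 HDAC6 starts in both Ctrl lists. It lay at chrX:48801368-48802572 in replicate 1 and chrX:48801372-48802515 in replicate 2. The fold was 3.98 and 4.24, the percentile 83.2 and 85.4, and the width percentile 96.4 and 96.0. These boundaries fell within 30 bp of the first start on the upstream side, and the peaks contained the 928 bases shared by the ATAC lists in full. A CUT&Tag start peak in both lists was found at 36.5% of genes, and at 2.58% together with none in either HDAC6 ChIP Ctrl list. Among the 8063 genes with ATAC in all 12 and PolII in all 8 lists, 77.6% had it, and 4.22% had it without a start peak in any HDAC6 ChIP list, as HDAC6 did. Replicate 2 had a second peak in the gene body at chrX:48818516-48818759, at percentile 28.8. Replicate 2 is the list with the hairpin prefix; without it, the start peak was at percentile 83.2.

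**Figure D4:**
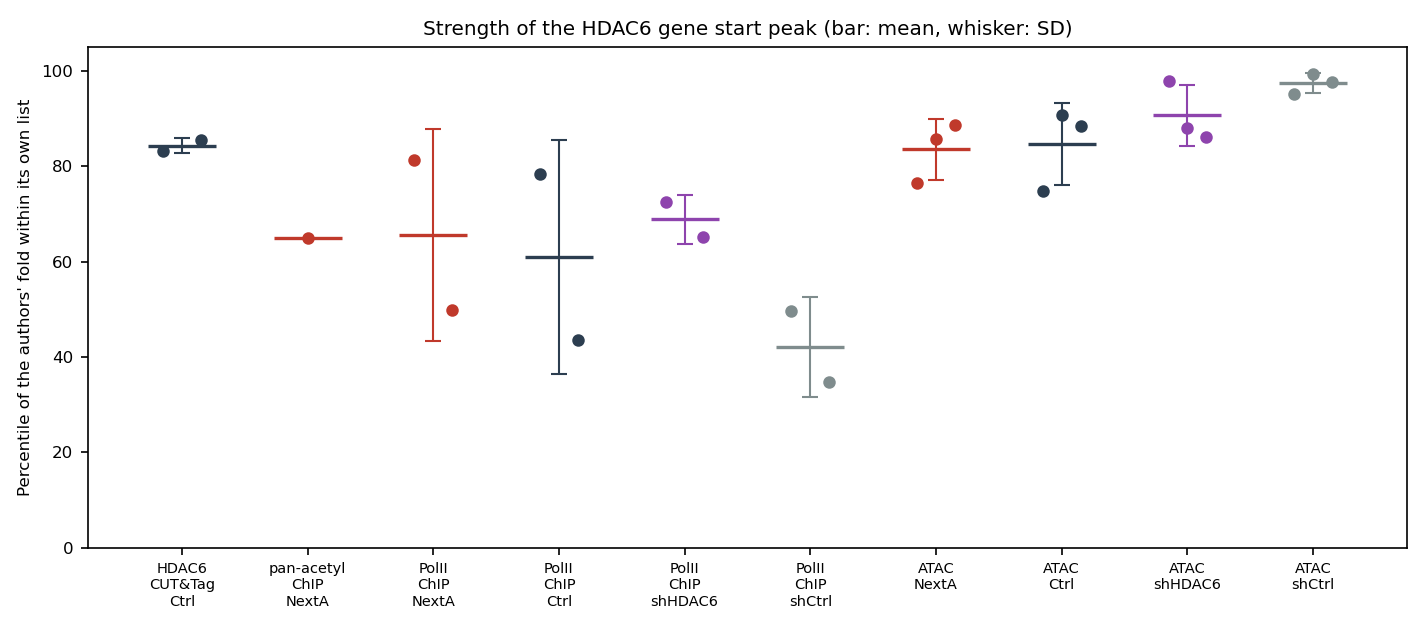
Percentile of the HDAC6 start peak by the authors' fold within its own list, for the groups with such a peak (points: lists, bar: mean, whisker: SD). ATAC lists lie between 74.7 and 99.3 and PolII lists between 34.7 and 81.2.

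Acetylated histone H3 was barely called at the locus. NextA replicate 2 had a start peak, at chrX:48801107-48801472, which covered the whole stretch of the first start. Its fold was 2.36, its percentile 65.0 and its −log10 q 0.137. NextA replicate 1 and both Ctrl lists had none, so the start was marked in 1 of 2 NextA lists and 0 of 2 Ctrl lists. HDAC6 therefore did not meet the call of gained, which 26.6% of the 15236 genes without a Ctrl start peak met. Ctrl replicate 2 had 2 gene body peaks, at chrX:48807675-48807994 and chrX:48814463-48814808, with folds of 2.42 and 2.26. Covered bases were 0 and 366 in NextA lists, against 0 and 666 in Ctrl lists (means 183 ± 259 and 333 ± 471, SD, n = 2 each; exact permutation p = 1.0). The lists held 28473 and 61186 peaks with NextA, against 1418 and 41411 in Ctrl. None of these 3 peaks reached a −log10 q of 5, and leaving out NextA replicate 1 would turn the call to gained.

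The nearest gene on each side of HDAC6 had no start peak. Before it on the chromosome, GATA1, an erythroid transcription factor, had a start peak in no list, and GLOD5 in 1 ATAC list. After it, ERAS, a Ras relative of embryonic stem cells that begins 1531 bp past HDAC6 and lies in the window, had none. PCSK1N, an inhibitor of a prohormone convertase, had 2 ATAC and 6 PolII peaks. Of the 20 protein-coding genes within 250 kb, 9 had ATAC in all 12 lists, 13 PolII in all 8, and 8 both. The shares of all genes were 43.0%, 53.6% and 40.4%. CUT&Tag was in both lists at 7 of the 20, beside 36.5% of all genes, and 4 of those had no HDAC6 ChIP peak. TIMM17B and PQBP1, with 1 shared start region, are among these 4. No neighbour's start peak was lost or gained in the PolII or ATAC comparisons, where neither call exceeded 2.24% over all genes. None had an HDAC6 ChIP peak in both Ctrl lists to lose, and of the 18 without a pan-acetyl peak in Ctrl 0 gained one, beside 26.6% of all such genes. The median ATAC percentile of HDAC6 was 88.6, against 83.2 at OTUD5, a deubiquitinase gene and the next highest of these genes. Its median PolII percentile of 57.5 was below the 75.6 of TIMM17B, of the mitochondrial import machinery, and PQBP1, a polyglutamine-binding protein, whose genes overlap and share a start region.

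**Figure D5:**
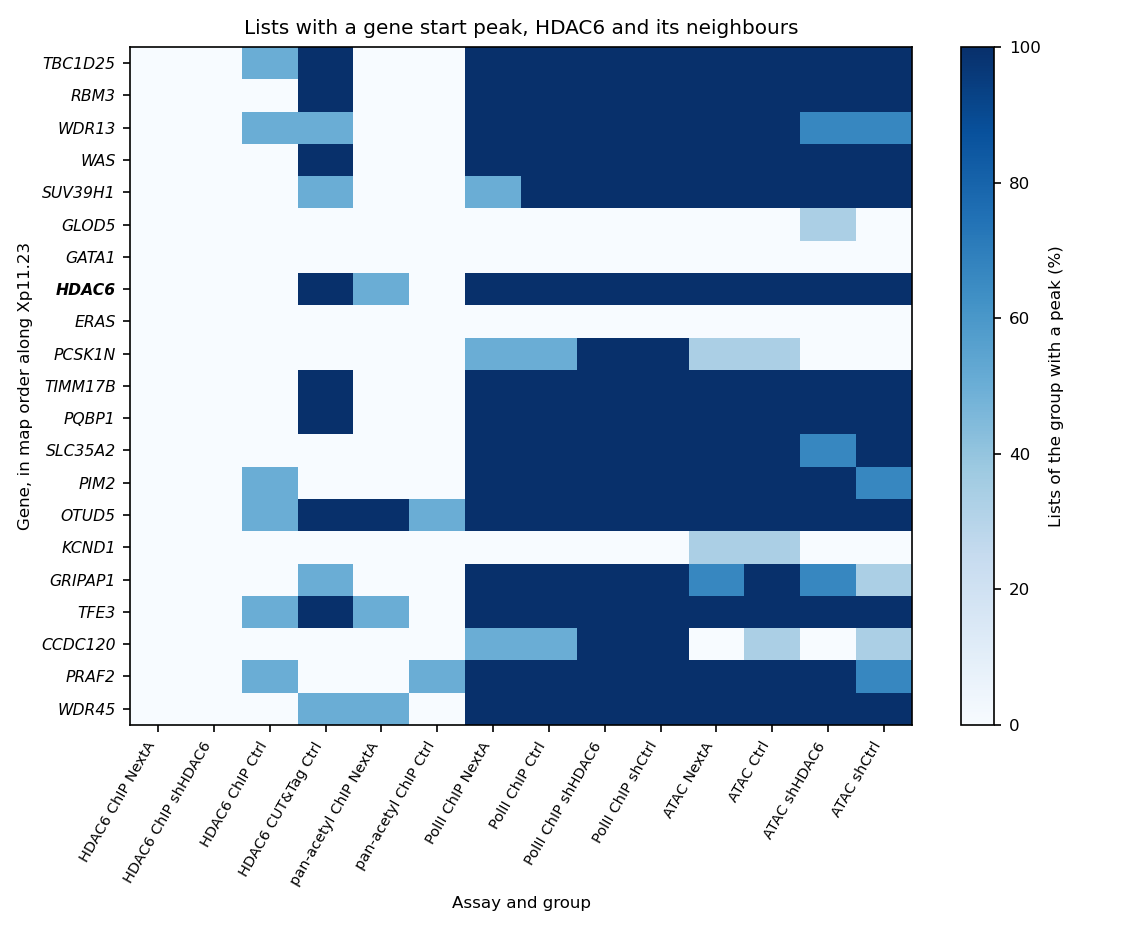
Share of each group's lists with a gene start peak, in percent, for HDAC6 and the 20 protein-coding genes within 250 kb, in map order. HDAC6 has ATAC and PolII in every list, while GLOD5, GATA1 and ERAS beside it have 1 ATAC peak among them.

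Among 30 other genes of HDAC6 biology, 20 had ATAC in all 12 lists, 29 PolII in all 8 and 22 CUT&Tag in both, and 27 had an HDAC6 ChIP start peak in at least 1 list. The shares of all genes were 43.0%, 53.6%, 36.5% and, for at least 1 HDAC6 ChIP list, 63.5%. These 30 genes were chosen with earlier results of these data known and were marked more often than all genes. The shares of all genes are thus not a matched background for the counts that follow. HDAC6 and AURKA, a mitotic kinase that phosphorylates HDAC6, had CUT&Tag in both lists and HDAC6 ChIP in none. The NextA lists of HDAC6 ChIP held 3256 and 235 peaks in all. Of the 30, 11 had an HDAC6 ChIP start peak in both Ctrl lists. All 11 had none with NextA, beside 91.1% of all such genes. They included the deacetylase HDAC4 (mean Ctrl percentile 90.2), the kinases PRKCZ (55.7) and GRK2 (51.5), the chaperone substrate HSP90AA1 (51.6), the tubulin TUBA1B (46.0) and the ubiquitin adaptor SQSTM1 (43.2). Pan-acetyl start peaks were gained at 13 of the 18 members without one in Ctrl, beside 26.6% of all such genes. HSP90AA1 (mean NextA percentile 88.6), the peroxidase PRDX1 (86.4), the autophagy gene TP53INP1 (86.3), TUBA1B (80.4) and the cortactin gene CTTN (79.7) were among the highest of these. No member was lost or gained in the PolII or ATAC comparisons, where neither call exceeded 2.24% over all genes. The presence calls of these genes matched HDAC6 in a median of 29 of 32 lists, against 25 over all genes.

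The genes whose start peaks followed HDAC6 most closely matched it in all 32 lists. There were 8 such genes, and HDAC6 with them makes 0.0451% of all genes. Ranked by the mean absolute difference in percentile over the 23 lists with a peak, they began with COPZ1, a coatomer subunit (10.6 points), and SMCO3 (10.8). FANCB, of the Fanconi anaemia core complex, and its neighbour MOSPD2 share a start region and 1 value (12.9). MICU2, a regulator of the mitochondrial calcium uniporter, followed at 20.4 and the zinc finger gene ZNF41 at 21.7.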

How the data were processed

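Peak lists of 32 MDA-MB231 samples were used. The authors deposited 1 list per sample with no header, in GRCh38 coordinates. Per the submitters' processing notes, Trim Galore 0.6.7, Bowtie2 2.4.4, SAMtools 1.13, MACS2 2.2.7.1, deepTools 3.5.1 and ChIPseeker 1.28.2 were used with hg38, without the role of each. The deposited fold (a linear ratio over the caller's background), the deposited −log10 of p and q, and the deposited score are the authors' values, and ATAC lists add the authors' summit position. Lists hold no read counts, so the depth behind a peak is unknown here and no interval is given for it.

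Chromosomes 1 to 22 and X were kept and lines repeating an interval were merged. Gene starts of 15811 of 19970 protein-coding genes came from RefSeq promoters, and 4159 were placed at whichever gene end was marked in more lists, or at both where tied (866). A start peak overlaps the start ± 1 kb by at least 1 bp. It was called lost where every control list and no list of the other group had one, and gained in the reverse. The shares given beside these calls are of genes with a start peak in every control list (lost) or in none (gained). Covered bases were compared by exact two-sided permutation over lists, with Benjamini-Hochberg adjustment over 6 comparisons, and checked on simulated data (Python 3.11.15, numpy 2.4.6, pandas 2.3.3, scipy 1.17.1, matplotlib 3.10.9).

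HDAC6, the 30 pathway genes, the markers, the motifs and the rule for named genes were chosen with earlier results of these data known. That rule takes HDAC6, up to 6 called pathway genes a comparison of highest percentile, the nearest neighbours, up to 6 examples, and the 6 genes most like HDAC6. Some genes that it names are not reported here. Same-numbered ATAC lists of NextA and Ctrl deviated together from their group means over 18163 gene windows (r = 0.765, 0.410 and 0.463). Crossed lists did so as well, with r = 0.428 for NextA 2 with Ctrl 3 and 0.484 for NextA 3 with Ctrl 2. The correlations thus set replicate 1, called on q in both groups, apart from replicates 2 and 3. They do not tie replicates 2 and 3 by number, and these were taken as pairs by their label alone. The other comparisons were not taken as paired: the hairpin lists share only a number, and the ChIP lists of NextA and Ctrl hold 2 numbers, which also separate lists called on q from p and, for HDAC6, the antibodies. Alternatives were a −log10 q floor of 5, equal list length, other windows and overlaps, cover per Mb, a replicate block, leaving out each list, and lists called on 1 measure.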

Additional observations from a re-analysis of the deposited data

How the results depend on the processing

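Covered bases passed the threshold in none of the 6 comparisons under any alternative, and with these list numbers none of the 6 could. HDAC6 ChIP gave a difference of 0 bases, in place of −146, at a −log10 q of at least 5, at equal list length and among lists called on q, and −292 to 0 when each list was left out. The shHDAC6 difference of −292 from the Novus Ctrl list was also 0 at that floor. Pan-acetyl gave 0, in place of −150, under the same 3 settings, and −483 to 183 when each list was left out, reversing to 33 without NextA replicate 1 and 183 without Ctrl replicate 2. Its start peak gave 0 percentage points, in place of 50, at the q floor and at equal length, and 0 to 100 when each list was left out. PolII with NextA gave −910.5 to 639.5, reversing without NextA replicate 1 and, at 637, without Ctrl replicate 2. PolII after knockdown gave 39 to 116, 1721 at the q floor, where the start peak differed by 100 percentage points. ATAC with NextA reversed to −89 with 20 kb flanks and to −0.406 per Mb of covered length, and gave 120.833 to 216.833 when each list was left out. ATAC after knockdown reversed to −28.3 with 20 kb flanks and to −22.7 without shHDAC6 replicate 3, with a range of −22.7 to 98.8. Where no values are given beside a reversal, the cause was not tested.

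With the replicate number as a block, the ATAC lists of NextA and Ctrl, paired by label, kept the difference of 172.667 bases. The exact p over blocks was 0.25, the smallest 3 pairs allow. The block p was 0.5 for both PolII comparisons and 1.0 for HDAC6 ChIP, pan-acetyl and ATAC after knockdown; it changed no call. In those comparisons same-numbered lists correlated at 0.138 for HDAC6 ChIP, 0.524 for pan-acetyl, 0.722 for PolII with NextA and 0.0233 for PolII after knockdown, and at 0.0310, −0.0683 and 0.0151 for ATAC after knockdown. Lists without read counts limit the locus to presence, extent and rank of peaks.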

Other observations

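HDAC10, the other class IIb deacetylase, was chosen here after its values were seen. Its start had an HDAC6 ChIP peak in both Ctrl lists, at a mean percentile of 3.48, and in no NextA list. It had a CUT&Tag peak in 0 of 2 lists. The HDAC6 start had no HDAC6 ChIP peak in Ctrl or NextA lists and a CUT&Tag peak in 2 of 2. HDAC10 had ATAC in 11 of 12 lists and PolII in 8 of 8, at median percentiles of 34.2 and 37.3, against 88.6 and 57.5 at HDAC6. Among the 20 neighbours, OTUD5 had pan-acetyl start peaks in both NextA lists and in 1 of 2 Ctrl lists, and 18 neighbours had none in Ctrl.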
